A study of Mus musculus with 12 samples.

Results

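The cytosolic ribosomal protein genes encode the protein parts of the large (Rpl) and small (Rps) subunits of the ribosome outside the mitochondrion. Members were all rows of the deposited table whose symbol is Rpl or Rps followed by a number, plus Rpsa and the stalk genes Rplp0, Rplp1 and Rplp2, without the Rps6k kinases, symbols marked as pseudogenes and the mitochondrial Mrp genes. They numbered 84 of 20540 genes, 51 of the large and 33 of the small subunit. The rule used symbols only and no measured value, but it was set with earlier results of these data known. In this tissue ribosomal protein mRNAs are abundant and are made in step with ribosomal RNA, and their translation is controlled through a pyrimidine tract at the 5′ end. Several members have a close copy elsewhere in the genome, and many left processed pseudogenes.

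RNA was measured in oligodendrocyte progenitor cells (OPCs), the glial precursors of myelinating oligodendrocytes, taken from C57BL/6 mouse brain at postnatal days 6 to 7 and grown in SATO+PDGFRA media. All cells of the study carried a biotin-tagged mimic, a synthetic duplex standing in for the processed microRNA, so no untransfected group was present. The 4 groups were whole-cell RNA under control mimic, whole-cell RNA under miR-27a mimic, RNA pulled down on streptavidin under control mimic and RNA pulled down under miR-27a mimic, with 3 libraries each. The sources used here do not give the sequence of the control mimic, the arm of miR-27a that was used, or whether replicates were separate cultures, and the p-values given here reflect library-to-library spread only, which can be technical.

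Libraries held 15548418 to 24972188 assigned reads, and a tested member had 329 to 40710 reads in a library. All 8 OPC markers on the list, among them Pdgfra, Cspg4 and Olig2, were present, with summed levels of 1625 to 1662 CPM (reads of a gene scaled to a common library size) in whole-cell RNA under control mimic. Markers of oligodendrocytes, such as Mbp, summed to 11100 to 11596 CPM and those of astrocytes to 7834 to 7857 CPM in the same libraries. Microglial markers were the lowest of these marker lists, from 18.8 CPM, and neuronal ones summed to 134 to 156, mural, endothelial and fibroblast ones to 65.9 to 77.1 and ependymal and choroid ones to 76.3 to 84.9 CPM. In bulk RNA, fewer cells of a type and less RNA per cell cannot be told apart. Pulldown replicates 1 and 2 of miR-27a mimic lay furthest from their group mean in these genes. The median member lay 0.15 above it on the log2 scale in replicate 1 and 0.17 below it in replicate 2, with 81 and 5 of 82 members above the mean. Control pulldown replicates 1 and 2 shifted the same way but less far, at 0.05 and -0.07, with 71 and 7 of 82 members above the mean. Apart from the miR-27a pulldown replicates 1 and 2, the 10 libraries had median deviations between -0.07 and 0.05.

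**Figure D1:**
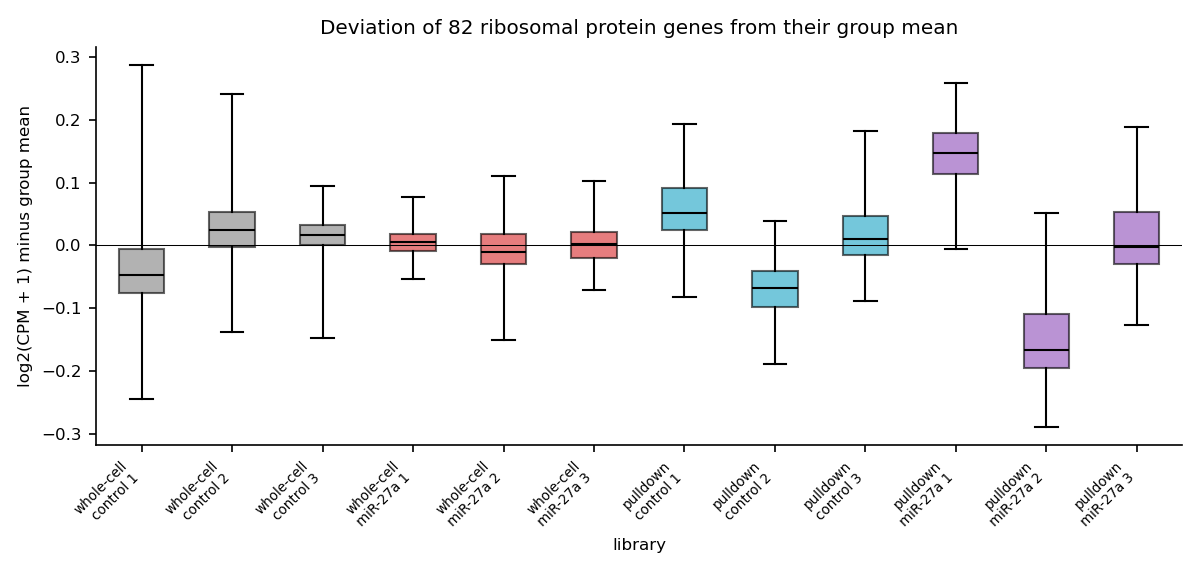
Deviation of each of the 82 tested ribosomal protein genes from its group mean, in log2(CPM + 1), by library (boxes, quartiles and median; whiskers, full range). Replicate 1 of the miR-27a pulldown sits above and replicate 2 below the other libraries.

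Of the members, 82 could be tested. Rpl3l, the heart and skeletal muscle paralog of Rpl3, had 4 reads over 4 libraries, and Rpl39l, a paralog of Rpl39 known from testis, had 4 reads over 2 libraries, so neither was tested. Rps4y2 is the older symbol of the gene named Rps4l in RefSeq, which the annotation lists as a transcribed processed pseudogene and not a coding gene. The other 81 tested members are annotated as coding genes, but Rpl7l1 and Rpl22l1 are paralogs and not parts of every ribosome.

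Close copies limit how reads can be assigned to a member. Of the 84 members, 76 had at least 1 window of 100 bases in their transcript that also occurs in the annotated transcript of another gene, and 33 had over 50% of their windows shared. Windows shared with processed pseudogenes and with read-through transcripts of neighbouring genes both count. The median share was 39.9%. Rps27 had the highest, 98.4%, mostly with its retrogene copy Rps27rt, and Rpl10 had 91.6%, while 8 members had none, among them Rpl22, Rps27l, Rpl32, Rps3, Rps21 and the untested Rpl3l and Rpl39l. The values of members with a high share are uncertain, because the sources used here do not state how the authors' counting treated reads that match several genes.

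Levels per kilobase of transcript, on a linear CPM scale, compare members with each other. In whole-cell RNA under control mimic Rps27, a zinc-finger protein of the small subunit, was highest at 1395 ± 33 CPM per kilobase (SD, n = 3), followed by Rpl41, the smallest large-subunit protein, at 1317 ± 27, and the acidic stalk proteins Rplp1 at 1302 ± 115 and Rplp0 at 1176 ± 64. Rpl7 followed at 1163 ± 22. The lowest tested were Rps4y2 at 32.0 ± 5.6, Rpl7l1 at 97.3 ± 2.6, Rps20 at 109 ± 3.4, Rps16 at 145 ± 17 and Rpl36al at 162 ± 3.0 CPM per kilobase. The highest exceeded the lowest by 43.6 times. The transcript model chosen for Rps20 has 3706 bases, of which the 3′ UTR takes 3167, so its level per kilobase depends on that model. Of 81 neighbouring pairs in the order, 66 had overlapping libraries, so the order is not resolved for most members.

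**Figure D2:**
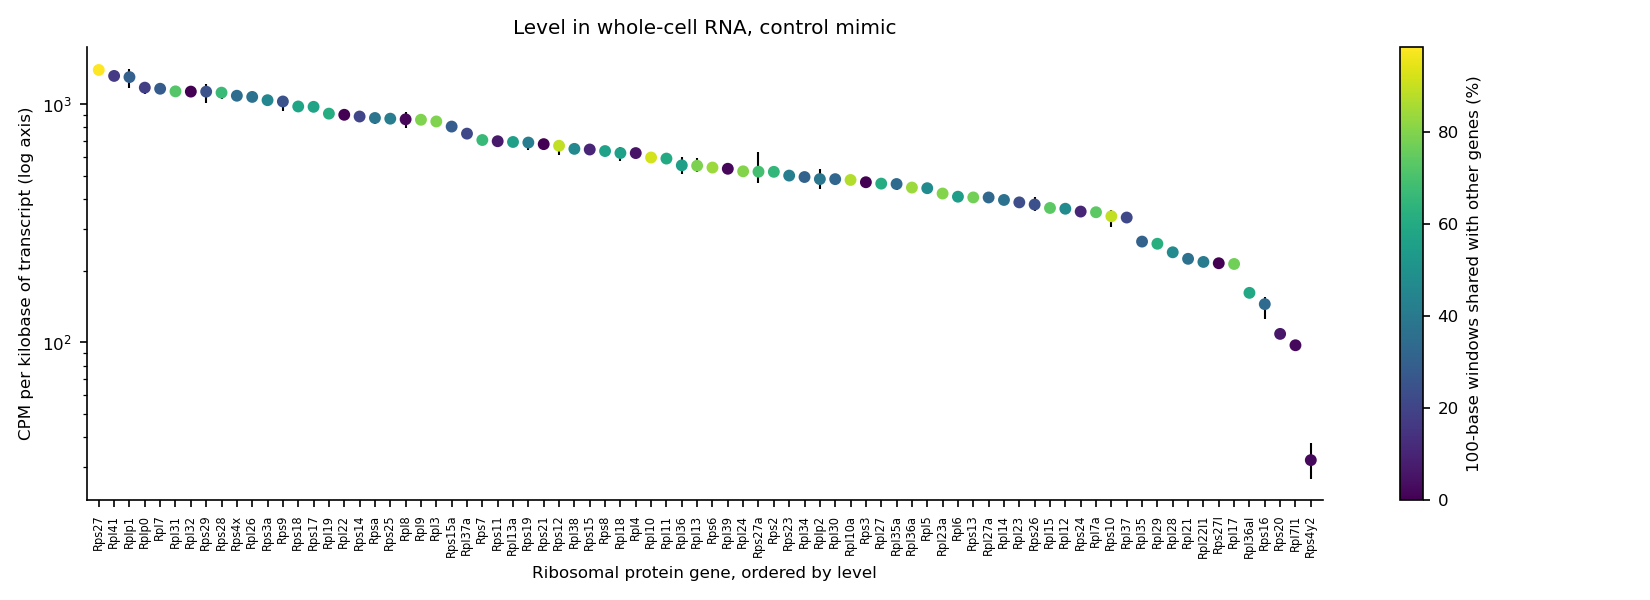
Level of 80 of the 82 tested ribosomal protein genes in whole-cell RNA under control mimic, in CPM per kilobase of transcript on a log axis, ordered by level (points, mean of 3 libraries; bars, lowest to highest library). Colour shows the share of 100-base windows shared with other genes; Rps4y2 is the lowest at 32.0 and Rps27 the highest at 1395.

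Summed over all members, the level was 38599 ± 984 CPM in whole-cell RNA under control mimic (SD, n = 3) and 37599 ± 223 CPM under miR-27a mimic. In pulldown RNA it was 33579 ± 1435 CPM under control mimic and 34557 ± 3560 CPM under miR-27a mimic. The wider spread of the last group comes with the replicates 1 and 2 described above. Scaled to library totals, the sums in whole-cell RNA were 37220 CPM under control and 36519 CPM under miR-27a mimic, and in pulldown RNA 34492 and 36097 CPM. With that scaling the pulldown sum under miR-27a mimic thus lay close to the whole-cell sum.

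The comparison of the mimics in whole-cell RNA asked which members differed under miR-27a. Of 82 members, 20 were lower and 2 higher, where 11.9% of all 13393 genes tested were lower and 13% higher. The median change of the members was -0.05 on the log2(CPM + 1) scale, against 0.01 over all genes. The changes were small: the smallest called was 0.10 and the largest 0.30 in size, and 80 of 82 members lay within 0.25 of no change. In one fit of all 12 libraries, where the spread is pooled with the pulldown libraries, Rps15a, Rps24 and Rpl22 were lower and no member was higher, where 4.72% of all genes were lower. The count of lower members was 35 without control replicate 1, 12 without control replicate 3 and 13 without miR-27a replicate 1, where 12%, 9.13% and 8.81% of all genes were lower. That of higher members was 6 without control replicate 2, where 13.5% of all genes were higher.

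Rps15a, a small-subunit protein, was at 504, 511 and 534 CPM under control mimic and at 423, 435 and 414 CPM under miR-27a mimic. All 3 control libraries lay above all 3 miR-27a libraries, a change of -0.28 ± 0.03 (SE, adjusted p = 9.97e-07). Rps24, a small-subunit protein in which mutations cause Diamond-Blackfan anaemia, was at 552, 572 and 592 CPM against 490, 512 and 466 CPM. These groups did not overlap either, and the change was -0.23 ± 0.04 (adjusted p = 6.76e-05).

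Rpl22, an RNA-binding protein of the large subunit, was at 429, 423 and 434 CPM against 371, 384 and 369 CPM. It fell by 0.19 with SE 0.03 (adjusted p = 8.81e-05) and shares no window with another gene. Rps27 was at 470, 482 and 492 CPM against 418, 428 and 422 CPM, a change of -0.19 ± 0.03 (adjusted p = 0.000127), but nearly all of its windows are shared.

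The largest fall by size was that of Rps27a, a fusion of ubiquitin with a small-subunit protein, at 401, 299 and 297 CPM against 260, 289 and 255 CPM. The first control library stood well above the other two, and the lowest control library stood above the highest miR-27a library by a small margin. Its change was -0.30 ± 0.07 (adjusted p = 0.00387, and 0.0664 with no filter on low values). The other members that fell ranged from Rpl21 at -0.17 ± 0.04 to Rps23 at -0.10 ± 0.03, and included Rpl30, Rps25, Rpl23 and Rpl31.

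Rpl18, a large-subunit protein, rose from 392, 450 and 431 CPM to 502, 483 and 524 CPM, a change of 0.25 ± 0.04 (adjusted p = 0.000119). Rps2, a small-subunit protein near the mRNA entry channel, rose from 509, 543 and 507 CPM to 581, 592 and 601 CPM, a change of 0.19 ± 0.03 (adjusted p = 0.000223). In both genes every miR-27a library was above every control library. Over 50% of the windows of each are shared with other genes, 55.3% in Rpl18 and 64.7% in Rps2.

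Across the 82 members the change under miR-27a in whole-cell RNA was related to GC content, with Spearman's rho 0.52, against 0.18 across 12424 genes; genes are not independent replicates, and these points share the same 6 libraries. Of the 41 members below the median GC content, 14 were lower and none higher, and of the 41 at or above it 6 were lower and 2 higher. This split was chosen after the values were seen. In the other comparisons rho with GC content was -0.08 for the mimics in pulldown, 0.36 for pulldown against whole-cell under control mimic and -0.06 under miR-27a mimic. In all, 12 such correlations were computed with GC content, transcript length and level, and the part of GC content in the change was not tested. Astrocyte markers also differed between these groups: their summed level was 6604 to 6663 CPM under miR-27a mimic, and 6 of 7 markers were lower. Oligodendrocyte markers summed to 10568 to 10953 CPM, with 3 of 6 lower. Mural, endothelial and fibroblast markers summed to 39.2 to 43.3 CPM, below control, with 2 of 4 tested lower and 0 higher. Neuronal ones summed to 180 to 205 CPM, above control, but 1 of 4 tested was higher and 1 lower. Ependymal and choroid ones summed to 91.5 to 105 CPM, above control, with 1 of 3 tested higher and 0 lower. OPC markers summed to 1690 to 1747 CPM, above control, with 4 of 8 higher and 1 lower. Microglial ones summed to 16.1 to 17.7 CPM, below control, with 1 of 6 tested lower and 0 higher. Their part in the changes of the members was not tested.

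**Figure D3:**
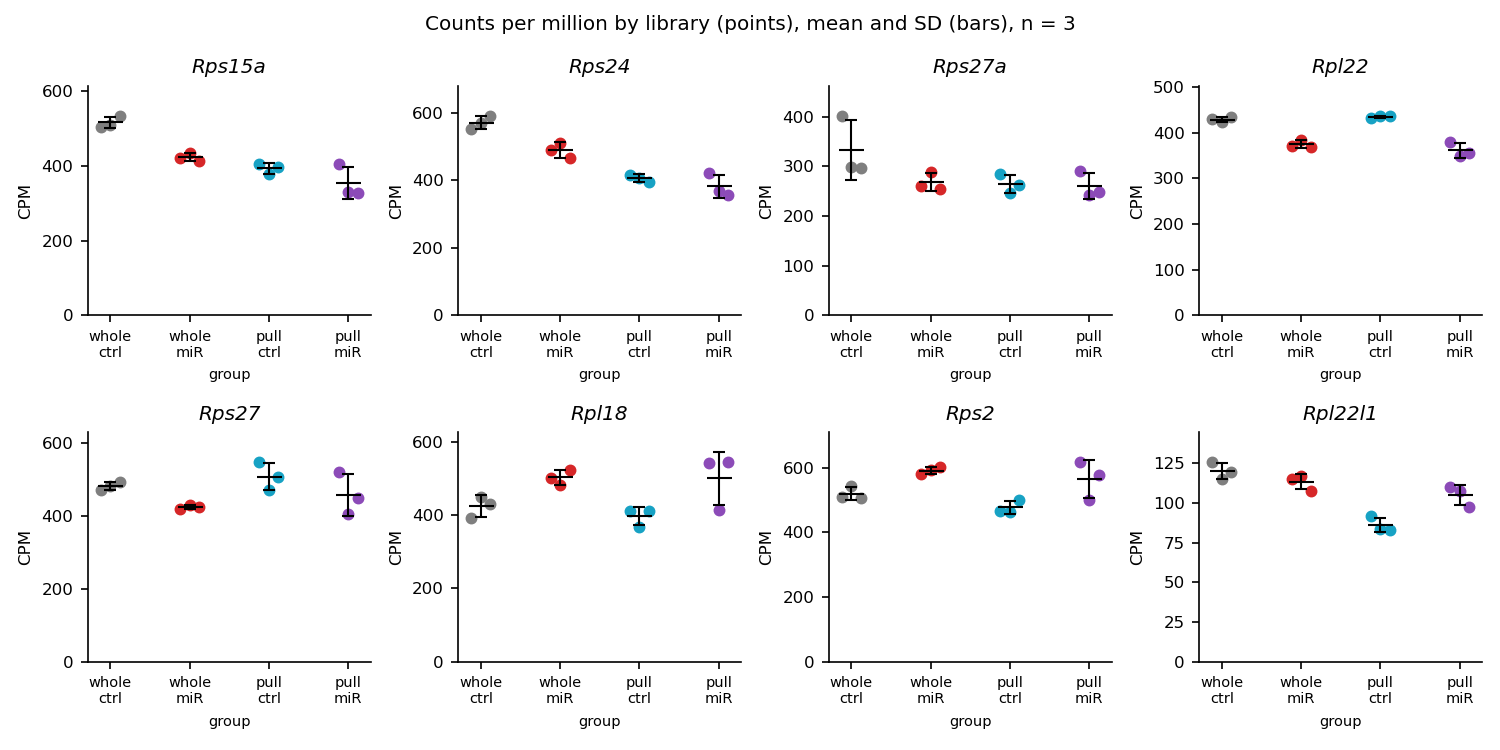
CPM of 8 members in each library of the 4 groups (points), with mean and SD (n = 3), each axis from 0. In whole-cell RNA the control and miR-27a libraries do not overlap for Rps15a, Rps24, Rps27a, Rpl22, Rps27, Rpl18 and Rps2, while those of Rpl22l1 do.

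In pulldown RNA the mimics were compared in the same way. Rpl22l1 was the only member higher and Rpl22 the only one lower, where 6.05% of the 13586 genes tested were higher and 7.06% lower. Rpl22l1 is the paralog of Rpl22 whose level is known to rise when Rpl22 is lost. Rpl22 was at 432, 436 and 437 CPM under control mimic and at 380, 349 and 355 CPM under miR-27a mimic, a change of -0.27 ± 0.08 (adjusted p = 0.0323). Rpl22l1 was at 91.6, 83.8 and 83.2 CPM against 110, 107 and 97.8 CPM, a change of 0.28 ± 0.09 (adjusted p = 0.0383). Neither gene's groups overlapped. In whole-cell RNA Rpl22l1 was at 126, 115 and 120 CPM against 115, 117 and 108 CPM, a change of -0.08 ± 0.04 (adjusted p = 0.169).

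Both calls rest on single libraries and on the filter, without which the adjusted p was 0.0564 and 0.0603: Rpl22l1 lost its call without any 1 of the 3 control libraries or of the miR-27a replicates 1 and 3, and Rpl22 without any control library or without miR-27a replicate 3. The labels do not state that replicate numbers pair libraries, but same-numbered pulldown libraries deviated together (r = 0.13, 0.27 and 0.11). With the replicate block 4 members were higher and 2 lower, where 9.38% of all genes were higher and 10.8% lower. The additional ones were Rpl18 (0.32, adjusted p = 0.00273), Rps2 (0.24, adjusted p = 0.0218), Rps27l (0.21, adjusted p = 0.0351) and, lower, Rps4y2 (-0.36, adjusted p = 0.0141). Without the block Rpl18 changed by 0.32 ± 0.10 (adjusted p = 0.0506) and Rps2 by 0.24 ± 0.09 (adjusted p = 0.102). Without miR-27a replicate 2, which was low in nearly all members, 10 members were higher and 1 lower, where 9.39% of all genes were higher and 10.6% lower. The members' median was 0.03, and -0.04 without miR-27a replicate 1.

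Of the 20 members that fell in whole-cell RNA, 15 had a negative change in the pulldown, where 32 of all 82 members and 50.2% of all genes tested were negative. The matching share among all genes that fell in whole-cell RNA was not counted. These 2 comparisons of the mimics share no library. Across all members Spearman's rho between them was 0.51, and across 12424 genes 0.53, so the members were alike to other genes in this respect.

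**Figure D4:**
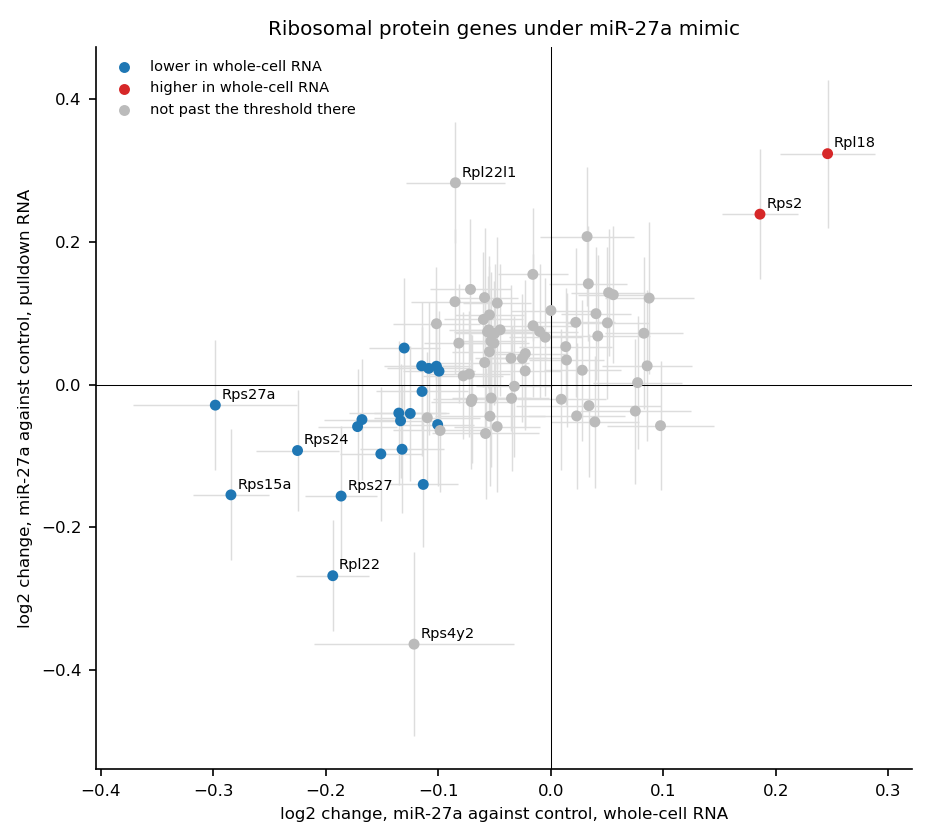
Log2 change of each ribosomal protein gene between miR-27a and control mimic, for whole-cell RNA (x axis) and pulldown RNA (y axis), with SE as bars. Rpl18 and Rps2 lie at the upper right, and Rps15a, Rps24, Rps27 and Rpl22 at the lower left; Rpl22l1 lies apart at 0.28 in pulldown and -0.08 in whole-cell RNA.

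The comparison of pulldown with whole-cell RNA asked which members were over- or under-represented among RNA captured with a mimic. Under control mimic 53 of 82 members were lower in pulldown and 0 higher, while 30.3% of 13875 genes were lower and 31.7% higher, 62% in all. At an unadjusted p under 0.05, 54 were lower and 0 higher, and limma voom gave 53 and 0. The median member changed by -0.20 and the median gene by 0.02. Scaled to library totals, 29 members were lower and 0 higher, where 24.6% of all genes were lower and 37.3% higher, and the medians were -0.11 and 0.10, so the sign of the members' median did not depend on the scaling.

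Rpl17 (chromosome 18), a large-subunit protein, was at 159, 169 and 169 CPM in whole-cell and 116, 118 and 111 CPM in pulldown RNA, a change of -0.52 ± 0.06 (adjusted p = 2.81e-07). Rpl4, which lines the exit tunnel, was at 957, 955 and 968 CPM against 677, 665 and 699 CPM, a change of -0.50 ± 0.05. All pulldown libraries were below all whole-cell libraries in both. Rps24 (-0.49 ± 0.06), Rpl27 (-0.49 ± 0.08), Rpl22l1 (-0.48 ± 0.07) and the 5S RNP protein Rpl5 (-0.44 ± 0.06) followed.

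The stalk proteins and several others did not pass the test. Rplp0 was at 1499, 1664 and 1627 CPM in whole-cell and at 1720, 1514 and 1730 CPM in pulldown RNA, a change of 0.05 ± 0.08 with overlapping groups. Rplp1 changed by -0.05 ± 0.10, Rplp2 by -0.09 ± 0.08, Rps27 by 0.07 ± 0.08 and Rpl22 by 0.02 ± 0.05. With SEs from 0.05 in Rpl22 to 0.10 in Rplp1, changes about as large as the SE were not detectable. The smallest change called among the members in this comparison was 0.14 in size, so smaller changes in these genes could be missed. Of 49 large-subunit members 36 were lower, with a median of -0.25, and of 33 small-subunit members 17, with a median of -0.17. Whether the subunits differ was not tested.

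Under miR-27a mimic 33 of 82 members were lower in pulldown and 0 higher, while 30.9% of genes were lower and 29.3% higher, 60.2% in all. At an unadjusted p under 0.05, 37 were lower and 0 higher, and limma voom gave 33 and 0. The median member changed by -0.13, the median gene by -0.01. Scaled to library totals the medians were -0.02 and 0.08, Rps27 was higher (0.21) and 15 members were lower, and over all genes 36.1% were then higher and 23.9% lower. Without miR-27a pulldown replicate 1, which was high in nearly all members, 53 were lower, and without replicate 2, 25 were lower and 4 higher, among them Rps27 and Rplp0, where 30.7% and 31.6% of all genes were lower. With only the 6 libraries of this comparison in the fit, 22 members were lower, where 29.6% of all genes were.

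Rpl4 was at 933, 917 and 920 CPM in whole-cell and 713, 717 and 718 CPM in pulldown RNA, a change of -0.37 ± 0.05 (adjusted p = 7.45e-06). Rpl38, a large-subunit protein known for its role in translating Hox mRNAs, was at 216, 217 and 209 CPM against 186, 150 and 166 CPM, a change of -0.36 ± 0.07. Rpl27 fell by 0.37 and Rpl41 by 0.36. Rps4y2 had 22.9 ± 0.62 CPM against 17.5 ± 2.7 CPM (SD, n = 3 each), a change of -0.38 ± 0.12 (adjusted p = 0.013, and 0.0591 with library totals). In each of these genes the pulldown libraries lay below the whole-cell libraries.

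The members lower under both mimics numbered 30, which is 56.6% of the 53 and 90.9% of the 33, and 26 were lower under neither. Over all genes, those lower under both were 83.4% of the genes lower under control mimic and 81.9% of those lower under miR-27a mimic. The share of all genes lower under neither was not counted. The 2 comparisons share no library, but both took their spread from the fit of all 12. Across members rho between them was 0.75, and across 12424 genes 0.90.

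The change of this contrast between mimics, tested as a difference, was called for 0 of 82 members, while 1.07% of 13875 genes were called, 0.339% higher and 0.735% lower. At an unadjusted p under 0.05, 2 members were higher and 0 lower, and limma voom gave 0. Rpl22l1 had the largest value, 0.37 ± 0.09 (adjusted p = 0.0612), and it passed the threshold with library totals (0.0481), with the replicate block (0.0419), without miR-27a pulldown replicate 2 (0.0188) and without replicate 3 (0.0447). Of 82 members, 80 lay within 0.25 of no difference.

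Paralog pairs and members with roles outside the ribosome were examined one by one. Rpl7l1, a paralog of Rpl7 that acts in ribosome assembly, was at 124, 129 and 130 CPM in the whole-cell control libraries and at 108, 101 and 107 CPM in the control pulldown, a change of -0.27 ± 0.06, beside -0.33 ± 0.06 for Rpl7. Under miR-27a mimic the same contrast was -0.23 ± 0.06 for Rpl7l1 and -0.20 ± 0.06 for Rpl7, and with library totals neither passed the threshold there (adjusted p = 0.0633 and 0.194). In whole-cell RNA Rpl7 was lower under miR-27a mimic at -0.10 ± 0.03, a call lost in the fit of all 12 libraries (adjusted p = 0.379).

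Rpl36al, a close copy of Rpl36a, was at 85.7, 86.0 and 83.2 CPM in the whole-cell control libraries and at 68.0, 59.9 and 66.2 CPM in the control pulldown, a change of -0.39 ± 0.08. Rpl36a changed by -0.20 ± 0.08 and kept no call with library totals (adjusted p = 0.21). In whole-cell RNA Rpl36al was lower under miR-27a mimic at -0.13 ± 0.04 (adjusted p = 0.0283), without a call when control replicate 2 or miR-27a replicate 1 was left out. Rps27l, a p53-induced paralog of Rps27, changed by -0.19 ± 0.08 in the pulldown under control mimic, where Rps27 did not pass the test, and lost its call with library totals (adjusted p = 0.26). Among the other genes with a paralog, Rpl3 changed by -0.29 ± 0.07 under control mimic and -0.18 ± 0.07 under miR-27a mimic, and Rpl39 by -0.29 ± 0.07 and -0.15 ± 0.07. Rps4x, the X-linked member of its family, changed by -0.25 ± 0.07 and -0.07 ± 0.07, and Rpl10, which also has a nearly identical pseudogene copy, by -0.14 ± 0.07 and 0.03 ± 0.07. Under control mimic Rpl3, Rpl39 and Rps4x were lower and Rpl10 was not past the threshold, and Rps4x lost its call with library totals (adjusted p = 0.0563). Under miR-27a mimic only Rpl3 of these 4 was lower (adjusted p = 0.0414), and not with library totals (adjusted p = 0.396).

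Rpl5 and Rpl11, which with 5S RNA bind and restrain Mdm2, were both lower in the pulldown: under control mimic the changes were -0.44 ± 0.06 and -0.26 ± 0.08, and under miR-27a mimic -0.30 ± 0.06 and -0.27 ± 0.08. The call of Rpl11 was lost with library totals under each mimic (adjusted p = 0.066 and 0.0765). Rps6, the target of S6 kinase, was lower under control mimic at -0.17 ± 0.06, a call lost with library totals (adjusted p = 0.235), and changed by -0.10 ± 0.06 under miR-27a mimic. Rps19, in which mutations cause Diamond-Blackfan anaemia, and Rpsa, also known as the laminin receptor, did not pass the test in the comparisons run, and their changes lay between -0.08 and 0.09. Without control replicate 1, Rps19 was lower in whole-cell RNA under miR-27a mimic (adjusted p = 0.00908).

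**Figure D5:**
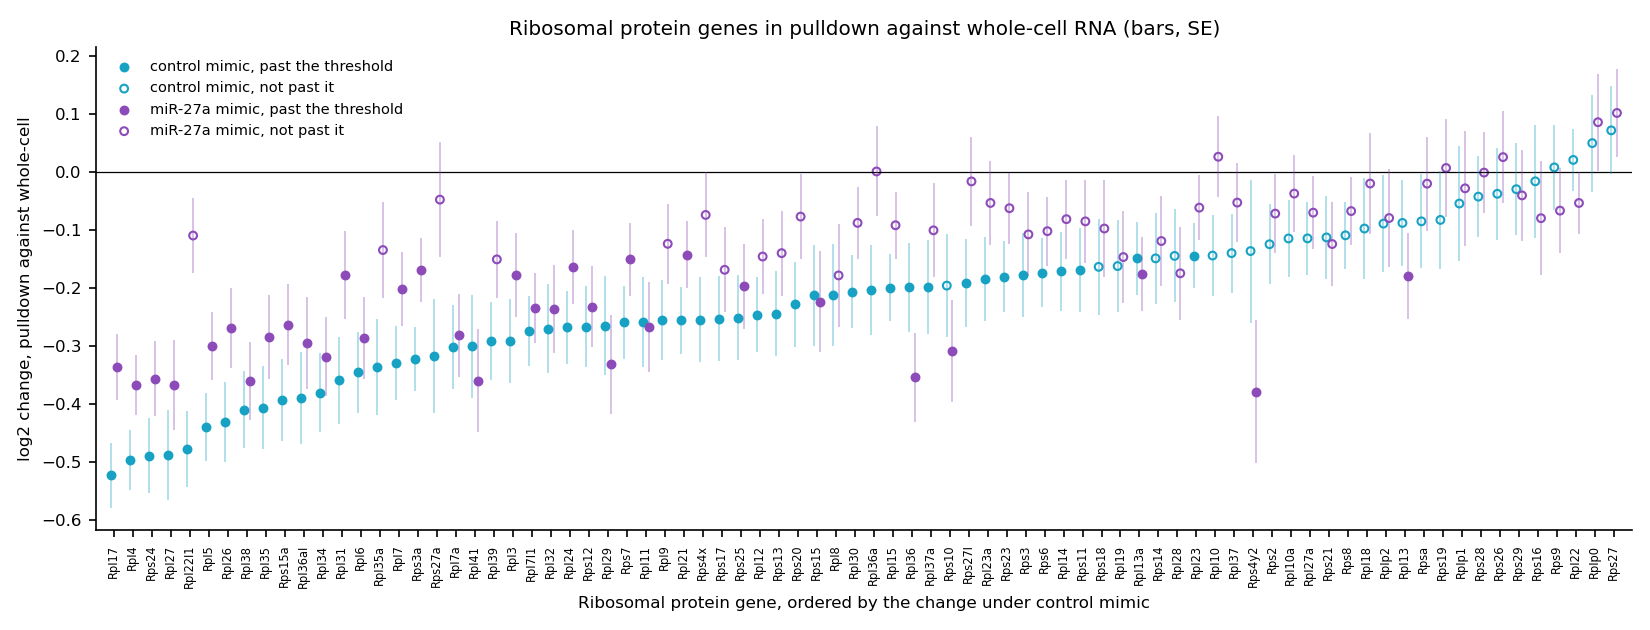
Log2 change in pulldown against whole-cell RNA for 80 of the 82 tested ribosomal protein genes under control and miR-27a mimic (points; filled, past the threshold; bars, SE), ordered by the change under control mimic. Rpl17 is lowest at -0.52 under control mimic. Over all 82 members tested, 78 changes under control mimic and 74 under miR-27a mimic are below 0. Over all genes tested, 48.8% and 50.9% are.

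Other cell markers moved with this contrast as well. Summed OPC markers were 3195 to 3246 CPM in pulldown RNA under control mimic and 3622 to 4011 CPM under miR-27a mimic, above the whole-cell ranges, while oligodendrocyte markers were 5088 to 5687 and 3733 to 4766 CPM, below them. Astrocyte markers were 5147 to 5289 and 3695 to 4128 CPM, also below. Ependymal and choroid markers were 217 to 236 and 227 to 254 CPM and mural, endothelial and fibroblast ones 86.0 to 89.1 and 67.1 to 72.7 CPM, above the whole-cell ranges. Neuronal markers were 113 to 124 and 132 to 154 CPM, below them, and microglial ones overlapped the whole-cell ranges. Under each mimic 7 of 8 OPC markers were higher and 6 of 6 oligodendrocyte and 5 of 7 astrocyte markers lower. Under control mimic 1 astrocyte marker was higher. Of 6 mural, endothelial and fibroblast markers tested, 3 were higher and 2 lower under each mimic. Of 4 neuronal ones, 1 was higher and 2 lower under control mimic, and 0 and 3 under miR-27a mimic. Of 3 ependymal and choroid ones, 2 were higher and 0 lower under control mimic, and 2 and 1 under miR-27a mimic. No list was at 0. Their part in the changes of the members was not tested.

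Genes that act with ribosomal proteins were counted from lists, beside the 30.3% of all genes lower and 31.7% higher in pulldown under control mimic and the 30.9% and 29.3% under miR-27a mimic. Of the 76 mitochondrial ribosomal protein genes, 44 were lower and 2 higher in pulldown under control mimic, with a median of -0.25, and under miR-27a mimic 49 and 1. Of 20 initiation factors, which load the ribosome onto mRNA, 18 were lower and 0 higher under each mimic, with medians of -0.49 and -0.41, led by Eif2s2 at -1.28 ± 0.07. Among 36 ribosome assembly genes 19 were lower and 2 higher under control mimic, led by Sbds, which releases Eif6 from the large subunit, at -0.96 ± 0.07. Under miR-27a mimic 14 assembly genes were lower and 7 higher. Of 20 regulators of ribosomal protein synthesis 9 were lower and 7 higher under control mimic, with Myc at 0.79 ± 0.12. Under miR-27a mimic 5 regulators were lower and 6 higher. Of 25 elongation factors and other mRNAs with a pyrimidine tract, 12 were lower and 6 higher under control mimic and 10 and 8 under miR-27a mimic, with Nap1l1 at -0.90 ± 0.07 under control mimic. In whole-cell RNA the mimics differed in 10 of the 36 assembly genes, 7 higher and 3 lower, and in 3 of the 20 initiation factors, 1 higher and 2 lower, where 24.9% of all genes differed.

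Ribosomal proteins listed under other names included Fau and Gnb2l1 (also Rack1). Neither passed the test between mimics, and Fau was lower in pulldown under miR-27a mimic at -0.31 ± 0.08 (adjusted p = 0.0036). Mitochondrially encoded mRNAs were not analysed here.

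Small nucleolar RNAs (snoRNAs), which guide chemical marking of ribosomal RNA, are made from introns of ribosomal protein genes. Among the deposited rows, 32 snoRNA genes lie inside 23 members. Of these, 31 had a higher mean in pulldown than in whole-cell RNA under each mimic, and their summed level was 38.6 against 65.4 CPM under control mimic and 37.5 against 63.0 CPM under miR-27a mimic. Every such row was at or below 8.56 CPM.

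The 5 genes outside the members whose log2(CPM + 1) followed the members' median over the 12 libraries most closely were Tomm7, 3010026O09Rik, Ndufa11, Uqcr11 and Prmt1, with Pearson's r from 0.95 to 0.96. Tomm7 belongs to the mitochondrial import pore, and Ndufa11 and Uqcr11 to the respiratory chain. The 12 libraries fall into 4 groups, so these values describe likeness over groups and libraries together.

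Seed matches for miR-27a were searched in the members' 3′ UTRs. The mature sequence in RefSeq's table (GRCm38.p6, chr8:84208727-84208747, plus strand) is shown with bases 2 to 8, the seed, in capitals, to show what was searched for; the sources do not state that this arm was used.
miR-27a-3p: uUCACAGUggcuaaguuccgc
In the chosen model of 83 members with a known 3′ UTR, a 7mer was found in Rpl27a and Rps20, 2.41%, and no 8mer. Of 15668 genes 23.0% had a 7mer and 5.05% an 8mer, and the members' 3′ UTRs had a median length of 58 bases against 764 over all genes. The model rule was changed after site counts had been seen: with any basic coding model, 7 members held a site, 8.43%, against 29.1% of 15545 genes. In whole-cell RNA under miR-27a, 3 of the 7 were lower (Rps15a, Rpl21 and Rpl27a), beside 20 of all 82 members and 11.9% of all genes tested. Rps20 at -0.06 ± 0.03, Rps7 at -0.05 ± 0.03, Rpsa at 0.02 ± 0.04 and Rpl15 at 0.03 ± 0.03 did not pass the test. Whether genes with a site were lower more often was not tested. Sites in the models concerned (GRCm38, matching letters in capitals) are shown for the 2 chosen models and, from the other models, for Rpl21 and Rps15a, which were picked because they were lower. The sites of Rpl15, Rps7 and Rpsa, which were not lower, are not shown.
Rpl27a (chr7:109522080-109522105, plus strand): ttgtaagcttACTGTGAtggacaggt
Rps20 (chr4:3832671-3832696, minus strand): gtcattgattCTGTGAAtcttgtatg
Rpl21 (chr5:146835976-146836002, plus strand, another model): cagcaccaggACTGTGAAgtgttttcc
Rps15a (chr7:118105310-118105335, minus strand, another model): gttttcatttCTGTGAAatgggtaca
The Rps15a site lies in a 3′ UTR of 4722 bases and the Rpl21 site in one of 1079 bases, models much longer than those chosen. A match is a description, not a site of action.

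Promoter windows of 63 members were matched in RefSeq's table (GRCm38.p6, 250 bases before to 50 after the start). The motif CCGGAAG on either strand, the core that ETS factors bind, occurred in 41.3% of members and 9.93% of 27025 genes. AAGATGGC on either strand, the core of YY1 sites, occurred in 9.52% and 3.19%, and CTTTCC on the sense strand, a pyrimidine-rich run, in 41.3% and 16.0%. CCGGAAG and AAGATGGC can overlap by the letters AAG. Stretches of 30 bases with the motif in capitals are shown for 4 members whose changes differ: Rps2 rose and Rps25 fell in whole-cell RNA under miR-27a, and Rpl38 and Rpl41 were lower in pulldown.
Rps2 (chr17:24719925-24719954, plus strand): atttatacgtcCTTCCGGctggtgtagggc
Rps25 (chr9:44407630-44407659, plus strand): cacccattgccCCGGAAGtactctctcgag
Rpl38 (chr11:114668549-114668578, plus strand): gggttaaccgtCCGGAAGcggaagcctcgt
Rpl41 (chr10:128549206-128549235, minus strand): tagtaaggcagCCGGAAGtcgctgtctcga
These 4 were picked for their differing changes, so they cannot show how the motif relates to the direction of change. Whether members with the motif changed differently from the others was not tested, and no factor's binding was measured.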

How the data were processed

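The authors deposited log2 CPM of 20540 genes in 12 libraries. Per the series' design text, the libraries were made with a stranded total RNA kit with ribosomal and globin depletion, and reads were trimmed with skewer, aligned with HISAT2 to GRCm38, sorted with SAMtools, counted with featureCounts and normalised in R. Versions of these tools are not given here by any source. A second build, mm8, appears in the submitters' processing notes with no stated use. The lowest deposited value, -6.27, is that of 0 reads, and all values gave whole reads within 0.01, so CPM was recovered for each gene. Library sizes implied normalisation factors of 0.961 to 1.055.

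The test was limma's moderated test (version 3.58.1, R 4.3.3) with a trend over expression, two-sided, on log2(CPM + 1), with Benjamini-Hochberg adjustment over all genes tested at 0.05, and was tested on simulated data. A gene entered a fit if 3 or more of its libraries held 1 CPM or more. On that scale the change of a low gene is understated. Mimics were compared in fits of 6 libraries. Pulldown was compared with whole-cell RNA, and the difference between mimics tested, in a fit of all 12. The alternatives were other pseudocounts, filters, scalings, limma voom on the recovered reads, a replicate block, each library left out in turn and fits of other libraries. Same-numbered pulldown libraries deviated together (r = 0.13, 0.27 and 0.11). Under miR-27a mimic so did whole-cell and pulldown libraries numbered 2 and 3 (r = 0.16 and 0.13), but not those numbered 1 (0.01). In the other comparisons same-numbered libraries did not, with r from -0.10 to 0.01.

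The members and lists were chosen with earlier results of these data known. Named were fixed paralog and role genes, and the 5 largest rises and falls past the threshold with at least 5 CPM in a group. Transcript models, 3′ UTRs and shared windows came from GENCODE M21 (GRCm38). Lists of other genes were ribosomal proteins with other names, elongation and pyrimidine-tract mRNAs, assembly genes, regulators, initiation factors and cell type markers. Python 3.11.15 with pandas 2.3.3, matplotlib 3.10.9, scipy 1.17.1 and numpy 2.4.6 made the tables and plots. A few genes are not reported here by name and are left out of the plots that label each gene; counts and summed levels include them.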

Additional observations from a re-analysis of the deposited data

How the results depend on the processing

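Counts of members called depended on the libraries used and, in pulldown against whole-cell RNA, on the scaling. For the mimics in whole-cell RNA (2 higher, 20 lower), the fit of all 12 libraries gave 0 and 3. In that fit 5.48% of all genes were higher and 4.72% lower. With 1 library left out, 2 to 6 members were higher and 12 to 35 lower. Of all genes, 9.07% to 13.46% were then higher and 8.81% to 11.97% lower. For the mimics in pulldown RNA (1 and 1), no filter on low values gave 0 and 0, where 2.90% of all genes were higher and 3.40% lower. Library totals gave 2 higher, where 6.78% of all genes were. The replicate block gave 4 and 2, where 9.38% of all genes were higher and 10.8% lower. All 12 libraries gave 3 and 2, where 10.1% of all genes were higher and 11.9% lower. Leaving out 1 library gave 0 to 10 higher and 0 to 2 lower, where 3.51% to 9.39% of all genes were higher and 3.66% to 10.6% lower. For pulldown against whole-cell RNA under control mimic (53 lower), library totals gave 29, where 24.6% of all genes were lower. Only the 6 libraries compared gave 65, where 32.4% were, and leaving out 1 library 37 to 64, where 27.4% to 32.7% were. Under miR-27a mimic (33 lower), library totals gave 1 higher and 15 lower, where 36.1% of all genes were higher and 23.9% lower. Only the 6 libraries compared gave 22 lower, where 29.6% of all genes were. Leaving out 1 library gave 0 to 4 higher and 24 to 53 lower, where 25.9% to 29.6% of all genes were higher and 27.8% to 31.6% lower. For the difference between mimics (0), library totals and the block gave 1 higher, and leaving out 1 library 0 to 1. In whole-cell RNA the deviations of same-numbered libraries correlated at 0.00, -0.03 and -0.03 between mimics. Between whole-cell and pulldown RNA they correlated at -0.05, -0.10 and 0.01 under control mimic. Under miR-27a mimic the values were 0.01, 0.16 and 0.13, and each whole-cell library correlated best with the pulldown library of its own number. With the replicate block these comparisons gave 2 higher and 18 lower, 0 and 54, and 0 and 33. Of all genes, 12.04% were then higher and 11.14% lower for the mimics in whole-cell RNA. For pulldown against whole-cell RNA the shares were 31.71% and 30.54% under control mimic and 29.51% and 31.14% under miR-27a mimic. No called value reversed under an alternative. Among named genes, a direction counted only when called, and leaving out a library that was not compared was listed only where the call changed. The summed level of the members moved to 37220 and 36519 CPM with library totals in whole-cell RNA, by more than 1 SD, and to 34492 and 36097 CPM in pulldown RNA, by less than 1 SD.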
